A study of Homo sapiens with 4 samples.

Results

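The genes described here encode the enzymes that build cholesterol from acetyl-CoA and the proteins that control them through SREBP, the sterol regulatory element binding proteins. They were chosen as a fixed list of 28 symbols, with older and current symbols of the same gene accepted. Of these, 27 were found by name among 19556 genes measured, each with 1 probe set. They fall into 8 genes of the mevalonate steps and isoprenoid branch point, 3 genes from squalene to lanosterol, 8 genes from lanosterol to cholesterol, 7 genes of SREBP control and 1 sterol carrier. SC5DL, the sterol desaturase near the end of the pathway, had no row under that name, and a row that may correspond to it is given apart.

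Affymetrix whole-transcript arrays were run on RNA of U87MG, an established cell line of human malignant glioma, in 4 samples. The 2 wild-type samples were of a clone with wild-type CD13/APN, the membrane alanyl-aminopeptidase encoded by ANPEP, and the 2 L243P samples were of a different clone with its L243P form, inactive according to the labels. Both construct names include EGFP, growth was stated to be comparable, and the 2 samples of a group came from independent experiments. The comparison asks which transcripts differ between cells with active and inactive CD13/APN, but with 1 clone per genotype, genotype and clone cannot be told apart, and the p-values measure only the spread between samples of a clone.

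Cholesterol synthesis begins with acetyl-CoA, which is condensed and reduced to mevalonate and then turned into isoprenoid units. These are joined to farnesyl diphosphate, which either leaves for protein prenylation, dolichol and ubiquinone or is joined to squalene and closed to lanosterol, the first sterol. Control is by feedback: when membrane sterol is high, INSIG proteins hold the SCAP and SREBP complex in the endoplasmic reticulum, and when it is low, SCAP escorts SREBP to the Golgi, where the proteases encoded by MBTPS1 and MBTPS2 release the part that enters the nucleus and activates the genes of the pathway.

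The promoter stretches of 7 members are shown with the sequence elements through which the pathway is known to be controlled, where they hold any. They belong to both called genes, IDI1 and FDPS, and to the regulators SREBF2 and INSIG1, which were not called. SREBF2 was the only member in which the sterol regulatory element core was found, and INSIG1 the only 1 with the SREBP E-box. Stretches of the other SREBP control genes are not shown. Also shown are the 3 further enzymes with adjusted p-values under 0.1, CYP51A1, HMGCS1 and SC4MOL. Sequences are from RefSeq (GRCh38.p14), run from 150 bases before the gene's start to the base before it, and are read 5′ to 3′ on the gene's strand. Capitals mark matches on either strand to the sterol regulatory element core TCACCCCAC, to the SREBP E-box ATCACGTGA and to the CCAAT box, which reads ATTGG when inverted.
SREBF2, chr22:41832955-41833104, plus strand: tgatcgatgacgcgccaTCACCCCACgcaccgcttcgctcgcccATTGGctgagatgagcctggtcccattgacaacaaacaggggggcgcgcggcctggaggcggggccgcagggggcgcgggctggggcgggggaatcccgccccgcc
INSIG1, chr7:155297728-155297877, plus strand: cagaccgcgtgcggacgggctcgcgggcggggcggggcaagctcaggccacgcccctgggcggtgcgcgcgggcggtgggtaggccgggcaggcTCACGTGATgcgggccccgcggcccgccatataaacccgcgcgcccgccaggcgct
HMGCS1, chr5:43313413-43313562, minus strand: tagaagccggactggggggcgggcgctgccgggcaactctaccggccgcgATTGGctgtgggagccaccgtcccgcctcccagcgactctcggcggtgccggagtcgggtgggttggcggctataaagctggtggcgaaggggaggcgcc
IDI1, chr10:1049120-1049269, minus strand: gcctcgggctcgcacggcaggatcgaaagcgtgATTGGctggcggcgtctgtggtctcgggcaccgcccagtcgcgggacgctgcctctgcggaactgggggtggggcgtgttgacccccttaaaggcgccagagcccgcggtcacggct
FDPS, chr1:155308716-155308865, plus strand: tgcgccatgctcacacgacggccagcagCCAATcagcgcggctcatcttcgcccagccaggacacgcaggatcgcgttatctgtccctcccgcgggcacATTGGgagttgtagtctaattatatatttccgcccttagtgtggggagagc
SC4MOL, chr4:165327519-165327668, plus strand: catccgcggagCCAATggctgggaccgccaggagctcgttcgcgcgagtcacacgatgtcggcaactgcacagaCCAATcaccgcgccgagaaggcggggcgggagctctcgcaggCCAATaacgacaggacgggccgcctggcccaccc
CYP51A1, chr7:92134478-92134627, minus strand: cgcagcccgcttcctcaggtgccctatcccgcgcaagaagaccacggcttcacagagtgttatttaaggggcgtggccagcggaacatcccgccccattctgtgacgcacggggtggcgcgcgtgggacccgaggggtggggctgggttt
HMGCS1 has 2 start windows and IDI1 has 3 in the RefSeq table, and 1 of each is shown.

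The SREBF2 stretch holds a complete sterol regulatory element core 133 bases before the start, followed by an inverted CCAAT box. INSIG1 holds the full SREBP E-box, inverted, 56 bases before its start. The stretches of HMGCS1, IDI1, FDPS and SC4MOL hold 1 to 3 CCAAT boxes, the element bound by NF-Y, a known partner of SREBP. The CYP51A1 stretch holds none of the marked elements. Motifs were counted on both strands in windows from 250 bases before to 50 bases after each start, for 24 members with 31 windows and for 35116 windows of the whole table. The latter belong to 27305 genes and were neither limited to genes measured on the arrays nor matched to the members. A higher share in the members is therefore not shown to be particular to sterol genes. CCAAT was in 17 of the 31 member windows (54.8%) and in 34.6% of all windows. It was absent from the HMGCS1 window that is not shown and from 1 of the IDI1 windows that are not shown. The Sp1 box GGGCGG was in 25 (80.6%) against 45.0%. The sterol element core was in 1 member window (SREBF2, 3.2%) against 0.43%, and its looser form TCACNCCAC, which includes the core, was in the same window only, against 1.13%. ATCACGTGA was in 1 (INSIG1) against 0.268%, and the shorter E-box CACGTG, which lies within it, was in 3 (INSIG1, LSS and SCAP, 9.7%) against 7.26%. A match describes the letters of a window and does not show that a factor binds there. Only these fixed letters were searched, so a window without a match may still hold a variant form, or a site may lie outside it.

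In the L243P clone 2 members rose after adjustment over all rows, the isomerase gene IDI1 and the farnesyl diphosphate synthase gene FDPS, and none fell. In all genes, 0.430% were called higher and 0.537% lower by the same limma fit at an adjusted p under 0.05. For 22 of the 27 members (81.5%) both L243P samples lay above both wild-type samples, which held for 17.1% of all genes. For SCAP and INSIG2 both lay below, which held for 20.9% of all genes, and TM7SF2, MBTPS1 and MBTPS2 overlapped between the groups. Of the 9373 genes at least as bright as the dimmest member, 24.6% had both L243P samples above and 2317 had both below. The median log2 change, L243P over wild-type, was 0.41 over the 27 members and -0.02 over all genes. A log2 change of at least 0.5 was seen in 12 members (44.4%), in 2.30% of all genes and in 3.4% of these brighter genes. At an unadjusted p under 0.05, 20 members were higher and SCAP was lower, against 6.75% and 6.76% of all genes. Neither IDI1 nor FDPS kept its call when any 1 of the 4 arrays was left out, with the smallest adjusted p over all genes then between 0.179 and 0.311, and an exact permutation test of 2 samples against 2 cannot go below 0.333. The count of members called was 0 with limma's default prior (IDI1 adjusted p = 0.261, FDPS 0.26) and 9, all higher, with the arrays centred on their medians. In RNA from a whole culture, fewer cells that make a transcript and less of it per cell cannot be told apart.

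**Figure D1:**
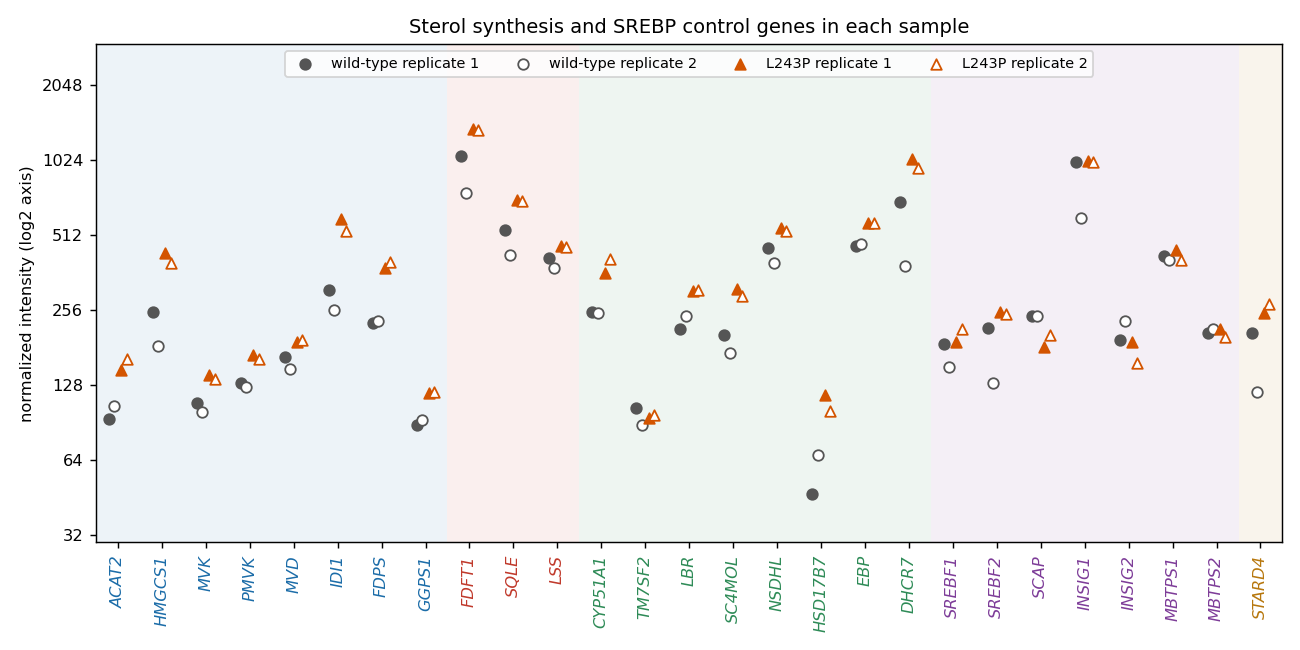
Normalized intensity (linear values on a log2 axis) of the 27 measured members in each of the 4 samples, in pathway order, with background shades and label colours for the mevalonate steps, squalene to lanosterol, lanosterol to cholesterol, SREBP control and the sterol carrier. The triangles of the L243P samples lie above both wild-type circles for 22 genes, and the open circle of wild-type replicate 2 is the lower circle for 18 of the 27.

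Across the 4 arrays the picture can be read sample by sample. When each member's log2 intensity was set against its own mean over the 4 arrays, the median over the 27 members was -0.07 in wild-type replicate 1 and -0.27 in wild-type replicate 2. In L243P replicates 1 and 2 it was 0.21 and 0.22. For all genes the same medians lay between -0.03 and 0.01. The members were thus at nearly the same level in both L243P samples and lower in both wild-type samples, replicate 2 more so than replicate 1.

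The mevalonate steps held both called genes, and all 8 of their measured genes were higher in both L243P samples than in both wild-type samples, with a median log2 change of 0.52. IDI1, which interconverts the isoprenoid building blocks, had intensities of 309 and 256 in wild-type replicates 1 and 2 and of 594 and 531 in L243P. The change was 0.998 on the log2 scale (SE 0.12, adjusted p = 0.0383), and it was larger than that of 99.8% of genes. FDPS, which joins the building blocks to farnesyl diphosphate, read 227 and 232 against 379 and 401. Its replicates lay close together in both groups, and the log2 change was 0.76 (SE 0.085, adjusted p = 0.0329).

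HMGCS1, which makes the HMG-CoA that is reduced to mevalonate, read 253 and 185 in the wild-type samples and 436 and 395 in the L243P samples. The log2 change was 0.94, close in size to that of IDI1, but the wider wild-type spread gave an SE of 0.16 and an adjusted p of 0.0811. ACAT2, whose enzyme joins acetyl-CoA units at the start of the pathway, read 94 and 106 against 147 and 163, a log2 change of 0.63 (SE 0.12, adjusted p = 0.108). The kinases MVK and PMVK and the decarboxylase MVD carry mevalonate to isopentenyl diphosphate. MVK read 109 and 100 against 141 and 136, PMVK 131 and 126 against 169 and 164, and MVD 166 and 149 against 192 and 195. Their log2 changes were 0.41, 0.37 and 0.30, none was called (adjusted p = 0.218, 0.213 and 0.336), and in each the lower L243P sample was above the higher wild-type sample. GGPS1, which extends farnesyl to geranylgeranyl diphosphate for protein prenylation, read 89 and 93 against 119 and 120. Its log2 change of 0.39 (SE 0.11) was not called (adjusted p = 0.224), and the groups did not overlap.

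From squalene to lanosterol, all 3 genes were higher in both L243P samples than in either wild-type sample, none was called, and the median log2 change was 0.56. FDFT1, the squalene synthase that commits farnesyl diphosphate to sterols, read 1067 and 755 in the wild-type samples and 1367 and 1356 in the L243P samples. SQLE, the squalene epoxidase, read 539 and 427 against 707 and 706. In both genes the L243P samples were nearly equal while wild-type replicate 2 lay well under replicate 1, and the log2 changes were 0.60 (SE 0.16, adjusted p = 0.217) and 0.56 (SE 0.12, adjusted p = 0.144). Without wild-type replicate 2 the log2 change of FDFT1 was 0.35. LSS, which closes squalene epoxide to lanosterol, read 417 and 379 against 464 and 461. It had the smallest log2 change of these 3 genes, 0.22 (SE 0.086, adjusted p = 0.406).

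Among the 8 measured genes from lanosterol to cholesterol, 7 were higher in both L243P samples and 1 overlapped, with a median log2 change of 0.52 and no call. CYP51A1, the cytochrome that removes a methyl group from lanosterol, read 253 and 250 against 362 and 411. Its log2 change was 0.62 (SE 0.096), with an adjusted p of 0.0678. SC4MOL, now named MSMO1, a methyl sterol oxidase, read 204 and 172 against 312 and 292, a log2 change of 0.69 (SE 0.11, adjusted p = 0.0774). NSDHL, a dehydrogenase of the same demethylation, read 457 and 396 against 547 and 534 (log2 change 0.35, adjusted p = 0.231).

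HSD17B7, a ketosteroid reductase of that demethylation, read 47 and 67 against 117 and 101, a log2 change of 0.95 (SE 0.20, adjusted p = 0.129), and here wild-type replicate 1 was the lower sample. Its near copy, the pseudogene HSD17B7P2, read 33 and 22 against 41 and 37, and probes that match both copies would make the value of either uncertain. EBP, which shifts a double bond in the sterol ring, read 464 and 473 against 572 and 576, a small but even difference (log2 change 0.29, SE 0.074, adjusted p = 0.196).

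DHCR7, the reductase of the last step of a branch to cholesterol, read 698 and 386 in the wild-type samples and 1035 and 952 in the L243P samples. The log2 change of 0.94 was large, but the wild-type samples themselves differed by 0.85 on the log2 scale, and the adjusted p was 0.231 (SE 0.26). It was 0.51 against wild-type replicate 1 alone and 1.36 against replicate 2 alone. A row that the table names C5D and describes as sterol-C5-desaturase was kept out of the counts because the name differs from that of SC5DL. It read 75 and 77 against 122 and 108, a log2 change of 0.60 (SE 0.12, adjusted p = 0.123), without overlap between the groups.

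The sterol reductases LBR and TM7SF2, which reduce the same double bond, gave different values. LBR, which is also a receptor for lamins in the inner nuclear membrane, read 216 and 244 against 305 and 309, a log2 change of 0.42 (SE 0.097, adjusted p = 0.167). TM7SF2 read 104 and 89 against 95 and 97. Its L243P samples lay inside the range of its wild-type samples, and the log2 change of -0.00 had a 95% interval from -0.31 to 0.31. It was the only enzyme of the 19 measured whose groups overlapped, and a difference between the changes of these enzymes was not tested.

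**Figure D2:**
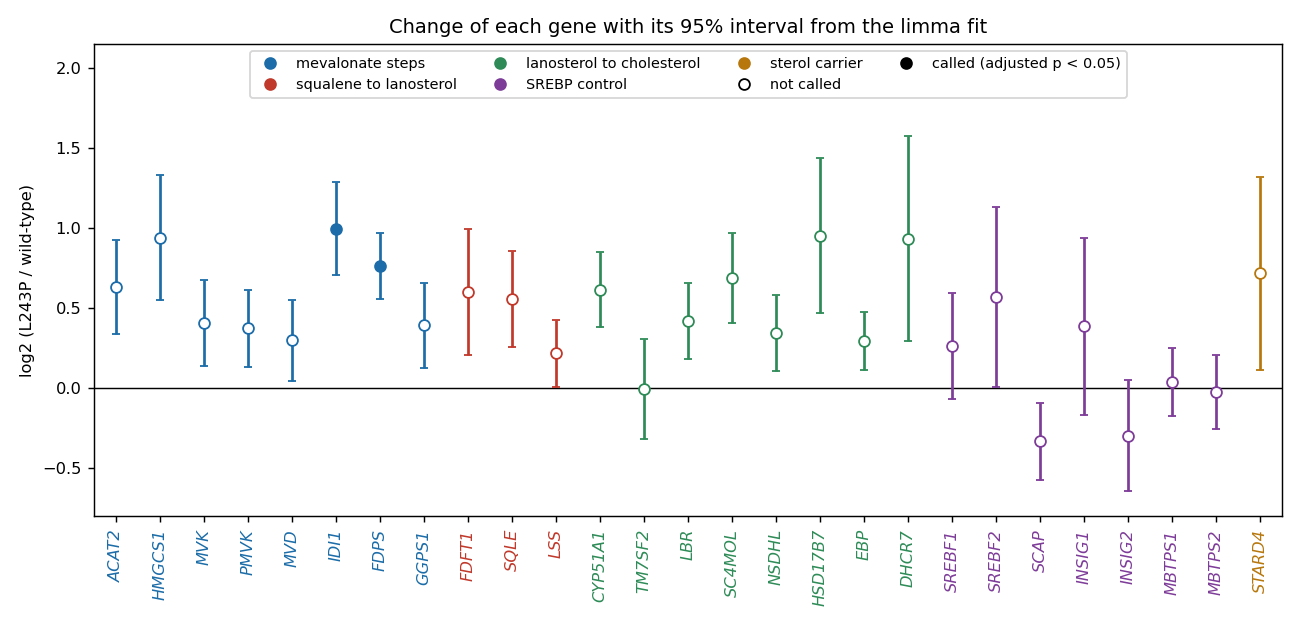
Log2 change of each of the 27 members (L243P over wild-type, vertical axis) with the 95% interval of the limma fit as bars, coloured by role, with filled points for genes called at an adjusted p under 0.05. IDI1 at 0.998 and FDPS at 0.76 are the filled points, SCAP at -0.33 and INSIG2 at -0.30 are the lowest, and intervals are widest for DHCR7, STARD4, SREBF2 and INSIG1.

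In the 7 genes of SREBP control the median log2 change was 0.04. The L243P samples both lay above the wild-type samples in 3 genes and below them in 2, the groups overlapped in 2, and none was called. SREBF2, which encodes the SREBP form that mainly drives sterol genes, read 217 and 131 against 253 and 247. The log2 change was 0.57 (SE 0.23, adjusted p = 0.419), and against wild-type replicate 1 alone it was 0.20. SREBF1, whose products mainly drive fatty acid genes, read 187 and 152 against 191 and 215, a log2 change of 0.27 (SE 0.13, adjusted p = 0.535), and its lower L243P sample was only just above its higher wild-type sample. The log2 change of SREBF1 was 0.12 against wild-type replicate 1 alone and 0.41 against replicate 2 alone, and it was 0.18 without L243P replicate 2. For SREBF2 the value against wild-type replicate 2 alone was 0.93.

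SCAP, the sterol-sensing escort of SREBP, was lower in the L243P clone, at 242 and 244 against 183 and 204. Its log2 change was -0.33 (SE 0.098), the lowest of the members, and it was not called (adjusted p = 0.263). INSIG1, the retention protein whose gene is itself an SREBP target, read 1005 and 601 against 1019 and 1013. Wild-type replicate 1 was close under the L243P samples and replicate 2 far below them. The log2 change was 0.02 against replicate 1 alone and 0.76 against replicate 2 alone, and 0.39 in the fit (95% interval -0.17 to 0.94, adjusted p = 0.61). INSIG2, the related retention protein, read 195 and 233 against 191 and 158. Both L243P samples were lower, 1 of them narrowly. The log2 change was -0.30 (SE 0.14, adjusted p = 0.508), and it was -0.16 without L243P replicate 2 and -0.17 without wild-type replicate 2.

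The proteases that cut SREBP gave nearly equal values in the groups. MBTPS1 read 424 and 409 against 448 and 409, a log2 change of 0.04 with a 95% interval from -0.17 to 0.25. MBTPS2 read 207 and 216 against 216 and 201, a log2 change of -0.02 with an interval from -0.25 to 0.21. STARD4, a soluble carrier that moves sterol between membranes, read 208 and 121 against 250 and 272. It was higher in both L243P samples. The log2 change was 0.72 (SE 0.25, adjusted p = 0.337), and it was 0.33 against wild-type replicate 1 and 1.11 against replicate 2.

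The wild-type replicates differed more in these genes than the L243P replicates did. The median absolute log2 gap between replicates was 0.21 in the wild-type group and 0.08 in the L243P group over the 27 members, against 0.15 and 0.12 over all genes. Over the genes at least as bright as the dimmest member it was 0.14 and 0.09. The wild-type gap was thus the wider 1 in these brighter genes too, and the members' L243P gap was near theirs. A gap of 0.5 or more was seen in 5 members of the wild-type group and in 0 of the L243P group, against 945 and 513 of 19556 genes. Among the 9373 brighter genes it was seen in 349 and 64. The 5 members were DHCR7 (0.85), STARD4 (0.78), INSIG1 (0.74) and SREBF2 (0.73), in which replicate 2 was dimmer, and HSD17B7 (-0.51), in which replicate 1 was dimmer. FDFT1 lay just under that step at 0.499. With wild-type replicate 1 alone as the control the members' median log2 change was 0.35, and with replicate 2 alone it was 0.47, so the direction of the median held with either sample. Growth-state genes differed between the wild-type replicates in the opposite direction to most members. All 5 of those measured were brighter in wild-type replicate 2 than in replicate 1, their summed intensity was 3793 and 4880 in the wild-type samples and 4099 and 4222 in the L243P samples, and 0 of the 5 were called between the groups by limma (1 at an unadjusted p under 0.05). The median wild-type log2 gap, replicate 1 minus replicate 2, was -0.39 in these 5 genes and 0.14 in the 27 members. It was -0.06 over the 9373 genes at least as bright as the dimmest member. Of these 9373 genes, 3404 were dimmer in wild-type replicate 2. The part of growth state in the sterol values was not tested.

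**Figure D3:**
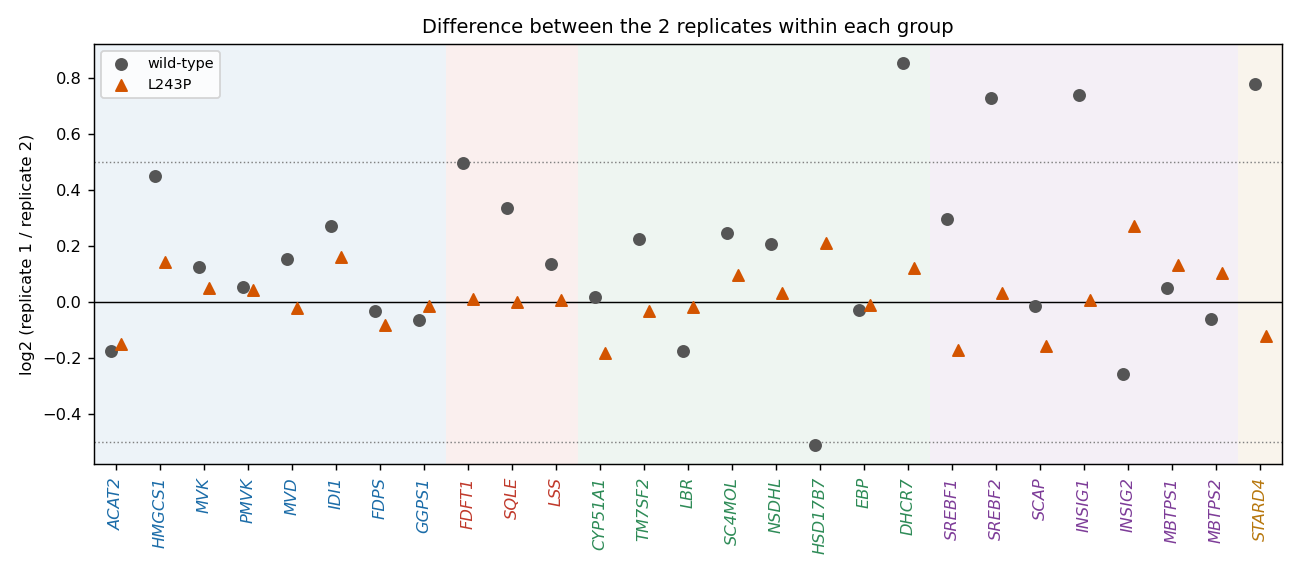
Log2 ratio of replicate 1 to replicate 2 (vertical axis) for each of the 27 members within the wild-type group (circles) and the L243P group (triangles), with dotted lines at 0.5 and -0.5 and background shades for the pathway roles. In 5 genes the wild-type gap reaches a dotted line (DHCR7, STARD4, INSIG1, SREBF2 and HSD17B7), and no L243P gap does.

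The authors' deposited table gives its own tests of the same values, with a rank product estimate of the proportion of false positives (pfp) for which the authors used a limit of 0.15. That limit was met in the authors' deposited table by 4 members as higher in L243P, namely IDI1 (0.0574), HSD17B7 (0.0811), HMGCS1 (0.0825) and DHCR7 (0.101), and in that direction by 0.522% of all genes. FDPS just missed it in the authors' deposited table, at 0.159. The authors' deposited table also lists an analysis of variance p-value of 0.0373 for IDI1 and of 0.0479 for FDPS, and no other member was under 0.05 there, against 0.465% of all genes. Its ratio-based p-value was under 0.05 for 10 members, against 2.71% of all genes, and these were all higher in L243P in the authors' deposited table: ACAT2, HMGCS1, IDI1, FDPS, FDFT1, SQLE, CYP51A1, SC4MOL, HSD17B7 and DHCR7. The limma calls and the rank product selection of the authors' deposited table thus shared IDI1 alone, which is 1 of 2 members called by limma and 1 of 4 selected by rank product.

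Several members lie on chromosome 1, where neighbouring genes were also brighter in the L243P clone. For PMVK, FDPS, GGPS1, LBR and HSD17B7 the 20 nearest measured genes had median log2 changes between 0.22 and 0.28, while all 1902 genes of chromosome 1 had a median of 0.04. Some of these sets of neighbours overlap. After the neighbours' median was subtracted, the values were 0.14 for PMVK, 0.17 for GGPS1 and 0.15 for LBR, and larger for FDPS (0.55, adjusted p = 0.0687) and HSD17B7 (0.68, adjusted p = 0.243). FDPS therefore lost its call by this measure. The remaining 22 members had neighbours with medians between -0.14 and 0.13, and their own median log2 change was 0.40 before and 0.47 after subtraction. IDI1 kept its call (0.87, adjusted p = 0.0478), and SC4MOL gained a call (0.83, adjusted p = 0.0478). For these p-values the SE of each gene was left as it was, so the uncertainty of the neighbours' median is not included. Calls by this measure are therefore descriptive. Copy number was not measured, and its part in the chromosome 1 values was not tested.

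**Figure D4:**
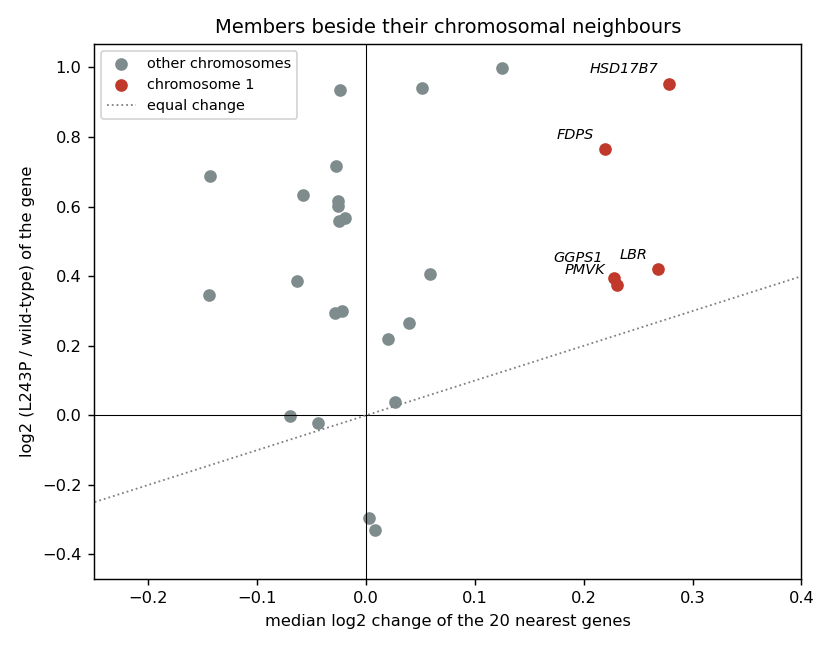
Log2 change of each of the 27 members (vertical axis) against the median log2 change of its 20 nearest measured genes (horizontal axis), with the 5 members on chromosome 1 in red and labelled and a dotted line of equal change. The chromosome 1 members stand apart to the right, with neighbours between 0.22 and 0.28, and GGPS1, PMVK and LBR lie nearer to the dotted line than HSD17B7 and FDPS do.

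Other genes of lipid and sterol handling were read from the same fit, and no gene of these lists was called by limma in either direction. The counts of genes whose samples all lay on 1 side are to be read against the shares of all genes, 17.1% with both L243P samples above and 20.9% with both below. Among genes at least as bright as the dimmest member, 24.6% had both above. Among 13 SREBP-regulated lipid genes outside sterol synthesis, 10 were higher in both L243P samples, 0 were lower in both, and the median log2 change was 0.57. TMEM97, a sterol-responsive membrane protein, read 504 and 472 against 696 and 734 (log2 change 0.55, SE 0.080, adjusted p = 0.0551). FADS1, a fatty acid desaturase, read 370 and 273 against 614 and 608 (0.94, SE 0.15, adjusted p = 0.0683). ACSS2, which makes acetyl-CoA from acetate, read 215 and 179 against 326 and 291 (0.65, SE 0.12, adjusted p = 0.108). The desaturase gene SCD, named here after its values were seen, had the largest change of the list and the same low wild-type replicate 2, at 1889 and 807 against 3127 and 3037 (1.32, SE 0.36, adjusted p = 0.227). ELOVL5, ELOVL6 and GPAM, also named after their values were seen, overlapped between the groups.

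Genes whose proteins carry, retain or degrade the SREBP machinery lay mostly on the lower side, without a call. Among 13 genes of SREBP turnover and transport, 7 were lower in both L243P samples and 2 were higher, with a median log2 change of -0.21. The share that was higher, 15.4%, was close to the 17.1% of all genes, and 20.9% of all genes were lower in both L243P samples. PAQR3, which tethers SCAP to the Golgi, read 91 and 96 against 73 and 70 (log2 change -0.39, SE 0.12, adjusted p = 0.271). The cargo adaptors of transport vesicles SEC24A and SEC24B had log2 changes of -0.33 and -0.34 (adjusted p = 0.249 and 0.276), and the values of their samples did not overlap. Set beside SCAP at -0.33, these were changes of about the same size, but SEC24 proteins carry many cargoes besides SREBP.

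Genes that use isoprenoids for other ends had a median near that of all genes. Among 14 measured, 1 was higher and 5 were lower in both L243P samples, with a median log2 change of -0.06. COQ2, which attaches an isoprenoid chain to the ring of ubiquinone, had a log2 change of -0.19 (adjusted p = 0.496). RABGGTA, a subunit of the enzyme that prenylates Rab proteins, had a log2 change of -0.24 (adjusted p = 0.514). Of 7 oxysterol and LXR genes, which include SREBF1, 3 were higher in both L243P samples and 0 lower, with a median of 0.27. NR1H3, which encodes an LXR receptor, read 93 and 95 against 153 and 131 (log2 change 0.59, adjusted p = 0.129), and the phospholipid acyltransferase gene LPCAT3 read 740 and 659 against 915 and 951 (0.42, adjusted p = 0.129). The sterol exporters ABCA1 and ABCG1, targets of LXR named after their values were seen, overlapped between the groups. Of 9 sterol supply and transfer genes, 2 were higher (22.2%, near the share of all genes) and 4 lower, with a median of -0.09. The lysosomal export genes NPC1 (0.31, adjusted p = 0.389) and NPC2 (0.25, adjusted p = 0.231) were on the higher side, and the oxysterol-binding protein gene OSBP (-0.22, adjusted p = 0.383) was on the lower. Differences between these lists were not tested.

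**Figure D5:**
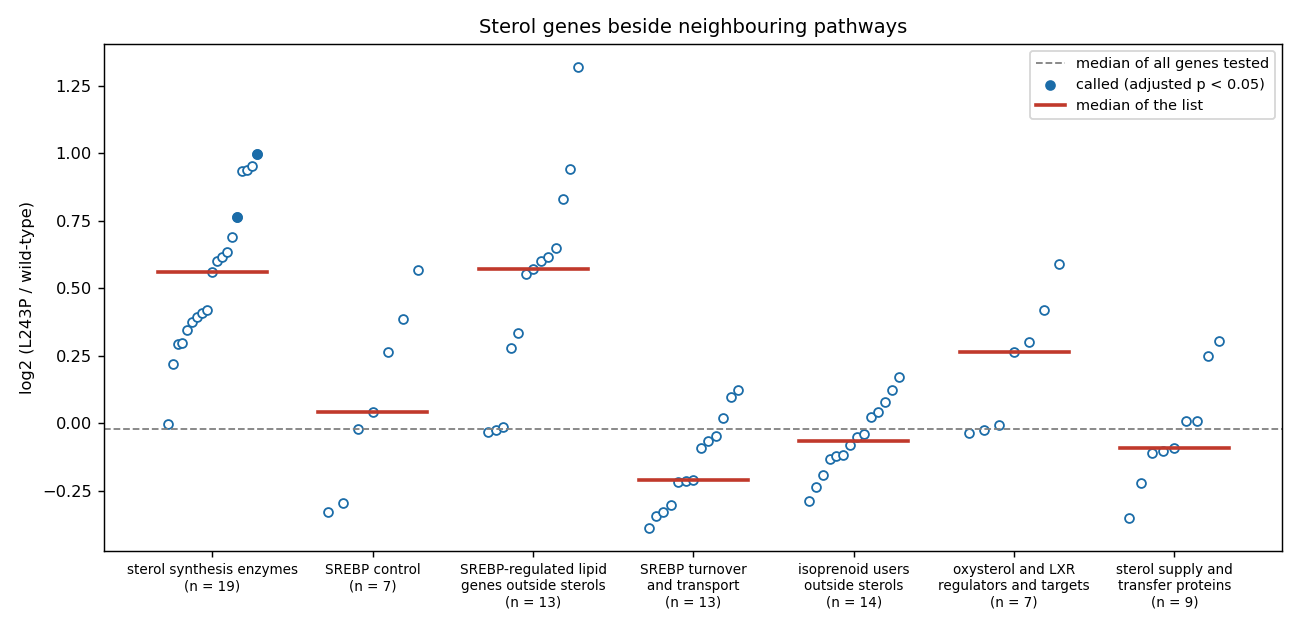
Log2 change (L243P over wild-type, vertical axis) of every measured gene in 7 groups, with red bars at the median of each group, filled points for genes called at an adjusted p under 0.05 and a dashed line at the median of all genes tested (-0.02). The 19 sterol enzymes (median 0.56) and the 13 SREBP-regulated lipid genes (0.57) lie highest, SREBP control (0.04) spreads around the dashed line, and SREBP turnover and transport (-0.21) lies lowest. SREBF1 is plotted in 2 groups.

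Across the whole table the arrays were alike, with median intensities between 46 and 50 and correlations of log2 intensity between 0.990 and 0.995. ANPEP read 8447 and 9103 in the wild-type samples and 6439 and 7122 in the L243P samples, a log2 change of -0.37 (SE 0.085, adjusted p = 0.16); the array does not tell the endogenous transcript from that of the construct, nor the active from the L243P form. Of 11 measured glial markers 0 were called by limma and 3 had an unadjusted p under 0.05, all without overlap between the groups: NES (log2 change 0.67, adjusted p = 0.125) and SLC1A3 (0.56, adjusted p = 0.122) were higher in both L243P samples, and SOX9 (-0.53, adjusted p = 0.161) was lower. These changes were of the size seen in many sterol genes, and their part in the sterol values was not tested. The summed intensity of the glial markers was 8518 and 10207 in the wild-type samples and 9722 and 10774 in the L243P samples, most of it VIM and CD44, and S100B, AQP4 and SLC1A2 read only 12 to 23. The summed intensity of 5 endothelial markers lay between 116 and 133, of 5 hepatocyte markers between 111 and 139 and of 4 adipocyte markers between 87 and 110. The sum of 6 immune markers, 2038 and 1976 in the wild-type samples and 2500 and 2673 in the L243P samples, was nearly all CD68 (log2 change 0.39, adjusted p = 0.108), with PTPRC at 8 or 9.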

How the data were processed

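The deposited table gives normalized intensities of 29085 probe sets, linear and rounded to whole numbers; the authors' deposited description states RMA background correction, quantile normalization and RMA summary in Rosetta Resolver, and RMA is also named in the submitters' processing notes. Neither genome build nor version is given in the sources used here. The authors' deposited table also holds a fold change and rank product ranks and pfp values (treated as scores) and p-values of several tests, used here only as deposited. Arrays have no sequencing depth, and their number (n = 2 per group) limits the precision.

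The brightest probe set stood for each gene, and symbols were updated through a RefSeq gene table of GRCh38.p14 (18200 of 19607 names matched), which was also used for the neighbours of a gene. Intensities were log2 transformed without a filter or pseudocount. The groups were compared with limma 3.58.1 (R 4.3.3) with trend and robust prior switched on, over 27534 rows (19556 genes and 7978 unnamed probe sets). P-values were adjusted by Benjamini-Hochberg across these rows, and genes under 0.05 were called. The scripts were tested on simulated data. There this fit called 26.8% of 2-fold and 87.8% of 4-fold changes, and limma's default prior called 0.2% and 9.8%. A 2-fold change can therefore often go without a call, nearly always with the default prior. Members, gene lists and this fit were chosen with earlier results of these data known, so their pattern is not independent support. Named were all members, the genes called in each list or else the 3 with the smallest p (1 of these is not reported here), and ANPEP; other genes are named as chosen after their values were seen. Alternatives were limma's default prior, centred arrays, the dimmer 50% of rows left out, a pseudocount of 16, other rules for probe sets, the series matrix values, a replicate block, each array left out and the neighbours' median subtracted. ACAT2, FDFT1 and SQLE were not in the promoter table.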

Additional observations from a re-analysis of the deposited data

How the results depend on the processing

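The members' median log2 change of 0.41 kept its direction under the alternatives that could change it. It was between 0.35 and 0.47 when each array was left out and 0.38 with a pseudocount of 16. With centred arrays it was 0.44, and after the neighbours' median was subtracted 0.45. The rest of the 14 alternatives left each member's log2 change as it was by construction. These were the default prior, the replicate blocks, the dimmer rows left out, the rules for probe sets and the series matrix values. Calls were less stable. Over all genes 189 were called, and of the members 2. With limma's default prior these counts were 0 (2785 at an unadjusted p under 0.05) and 0 (16 unadjusted), where rounding had left 836 rows with no spread within the groups. With centred arrays they were 505 (55.8% higher, against 44.4% without centring) and 9, and with the dimmer rows left out 440 (58.4% higher) and 7. With each array left out in turn they were between 0 and 0 for all genes (2309 to 3487 unadjusted) and between 0 and 0 for the members (6 to 18 unadjusted); in these fits the lone sample is assumed to vary like the other group. With the replicate block they were 0 (1637 unadjusted) and 0 (14 unadjusted). Samples with the same number did not deviate together (correlation -0.16, and -0.29 among the brighter rows). The labels do not say whether equal numbers mark the same experiment. With only 2 samples per group this correlation cannot decide it, so the pairing is unknown. With the numbers crossed, an alternative chosen after seeing the data, the counts were also 0 (2537 unadjusted) and 0 (16 unadjusted). The members called with centred arrays were ACAT2, HMGCS1, IDI1, FDPS, FDFT1, SQLE, CYP51A1, SC4MOL and HSD17B7. Of 378 single comparisons of a member under an alternative, 341 kept direction and side of the threshold, 13 gained a call, 15 lost it and 9 changed sign, all in genes near 0: TM7SF2 was at 0.0269 (centred) and 0.0666 (neighbours) and between -0.1156 and 0.1092 with an array left out, MBTPS2 at 0.0089 (centred) and 0.023 (neighbours) and between -0.0731 and 0.0307, and MBTPS1 between -0.026 and 0.1054. In the alternatives that left the log2 changes as they were, a change of sign was not possible. The causes were not tested.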
